A study of Mus musculus with 6 samples.

Results

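Gene expression in the olfactory bulb was compared with that in the hippocampus on 4 of the 6 Agilent 1-colour arrays of the series, 2 of each region, taken by the region in the sample titles. The animals were 8-week-old males of the inbred mouse strain BALB/c. They had received a single intranasal dose of saline or of PAMAM dendrimers, branched polyamidoamine polymers studied as carriers of drugs and nucleic acids, at 0.15 mg/kg, and their tissue was taken 24 h later. Each array carried RNA pooled from 6 independent experiments, so each region had 1 saline array and 1 PAMAM array. The labels do not say whether both regions came from the same mice. The other 2 arrays, of cortex, entered no test of the main comparison, and their levels are given beside a few genes. Both arrays of a region differ in treatment, so treatment was kept as a block, and the p-values measure only the spread left between these 4 pooled samples.

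The olfactory bulb is the first relay of the sense of smell. Axons of olfactory sensory neurons in the nose end in its glomeruli on the dendrites of mitral and tufted cells, its glutamatergic output neurons, and most of its other neurons are granule and periglomerular interneurons, which use GABA and in part dopamine and are renewed through life by neuroblasts that migrate in from the subventricular zone. The hippocampus is a folded part of the cerebral cortex whose main neurons, the pyramidal cells of the CA fields and the granule cells of the dentate gyrus, are glutamatergic, and it lies against a ventricle that holds choroid plexus. In bulk tissue, fewer cells of a type and less RNA per cell cannot be told apart.

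A level is log2 of an array's processed signal minus that array's 75th percentile, so 0 is the 75th percentile. A difference is olfactory bulb minus hippocampus on this log2 scale, positive where the bulb is higher, with its standard error (SE) and limma's Benjamini-Hochberg adjusted p. Pairs of levels are given as saline, then PAMAM. Of 23805 genes measured in at least 1 region, 3096 (13.0%) were called at an adjusted p under 0.05 and a difference of at least 2-fold. In the olfactory bulb 1534 genes (6.44%) were higher, and in the hippocampus 1562 (6.56%). Of these, 1039 and 1270 were above background on all 4 arrays. The median difference over all genes was -0.04 and the median SE 0.08. A further 114 genes differed by at least 2-fold towards the bulb and 69 towards the hippocampus without passing the adjusted p. Of 8801 unnamed or predicted transcripts among the genes tested, 510 were higher in the bulb and 334 in the hippocampus. Across arrays, 34872 to 39057 of 59305 spots were well above background and 0 were saturated. The lowest adjusted p the fit gave was 0.0083, shared by many genes. Counts of called list members below are to be read beside the shares of all genes, 6.44% and 6.56%.

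The markers matched both region labels. Omp, the olfactory marker protein of mature olfactory sensory neurons, had levels of 5.48 and 5.36 in the bulb and -3.58 and -3.46 in the hippocampus. Its difference was 8.94 (SE 0.10, adjusted p 0.0083), a 491-fold higher signal in the bulb (probe at chr7:105291870-105291929, mm9). This was the largest called difference towards the bulb among named genes above background on all 4 arrays. Neurod6, a transcription factor of pyramidal neurons, had levels of -2.89 and -3.29 in the bulb and 3.07 and 2.89 in the hippocampus. Its difference was -6.07 (SE 0.10, adjusted p 0.0083), 67.1-fold higher in the hippocampus (probe at chr6:55628006-55628065, mm9). The arrays of the regions did not overlap for either gene, and the saline and PAMAM arrays of each region lay close together.

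**Figure D1:**
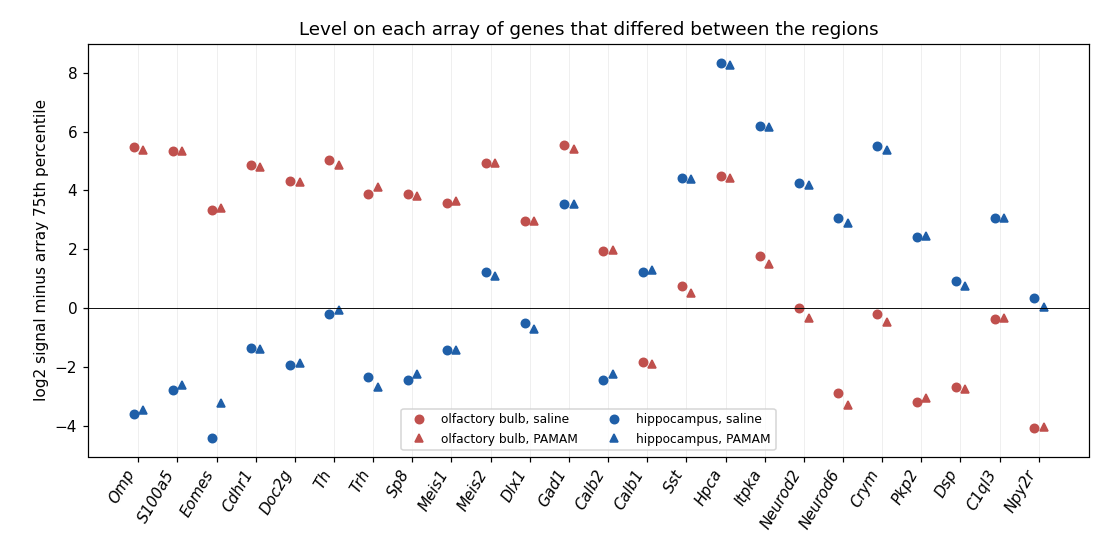
Level (log2 signal minus the array's 75th percentile) of 24 genes that differed between the regions, 1 point per array: red for the olfactory bulb, blue for the hippocampus, circles for saline and triangles for PAMAM. For each gene the 2 red points and the 2 blue points lie apart, as for Omp (5.48 and 5.36 against -3.58 and -3.46).

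A few genes of olfactory sensory neurons were called higher in the bulb, and a majority were not called. Of 13 such genes tested, 4 were called higher in the bulb and 1 in the hippocampus, with a median difference of 0.26. Among those 4, very high signal in the bulb was seen for Omp and S100a5 alone. S100a5, a calcium-binding protein of these neurons, had levels of 5.35 and 5.35 in the bulb and -2.78 and -2.62 in the hippocampus, a difference of 8.05 (SE 0.09, adjusted p 0.0083). Stoml3, a stomatin-like membrane protein, was well above background in the bulb alone and at least 28.1-fold higher there. Its adjusted p of 0.0083 belongs to the fitted difference (4.89), which uses hippocampal levels not well above background, and not to this bound. Gng8, a G protein gamma subunit, differed by 1.42. The parts of the odour transduction cascade gave other values: the channel subunits Cnga2 and Cnga4 differed by 0.32 and 0.00, the G protein chaperone Ric8b by 0.04, the adenylyl cyclase Adcy3 by -0.75 and the G protein alpha subunit Gnal by -0.87, none of them called. Ano2, a calcium-activated chloride channel, was higher in the hippocampus (-1.32). For the channel subunit Cngb1 the probes disagreed: the brightest gave -0.13 and another 2.97.

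Mitral and tufted cell genes were mostly higher in the bulb, 9 of 13 tested, with 2 higher in the hippocampus and a median of 2.07. The transcription factor Eomes (Tbr2), which marks these cells, had levels of 3.34 and 3.39 in the bulb and -4.40 and -3.21 in the hippocampus, a difference of 7.17 (SE 0.34, adjusted p 0.0088). Its partner in these cells, Tbx21, had levels of 2.12 and 2.14 in the bulb, was not well above background on either hippocampal array, and was at least 122-fold higher in the bulb. Cdhr1, a protocadherin-like protein, and Doc2g, of the double C2 domain family, differed by 6.19 and 6.21. The bulb arrays agreed closely for all these genes, and the wider spread of Eomes lay between the hippocampal arrays. Shisa3 was at least 51.6-fold higher in the bulb, and Nmb, the peptide neuromedin B, differed by 3.50. Reln, the secreted glycoprotein reelin, differed by 2.07 and the adhesion protein Ntng1 by 1.21. Tbr1 (-1.83) and the peptide Cck (-1.46), which cortical neurons also express, were higher in the hippocampus. Slc17a6, the vesicular glutamate transporter VGLUT2 of mitral cells, had levels of -0.03 and -0.02 in the bulb and 0.19 and 0.22 in the hippocampus and was not called (difference -0.23, adjusted p 0.11).

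The interneurons of the bulb were marked by nearly their whole list. Of 23 genes tested, 21 were higher in the bulb and 0 in the hippocampus, with a median of 3.30. Members of the homeobox family that specifies forebrain GABA neurons were all higher: Dlx1 by 3.58, Dlx2 by 3.54, Dlx5 by 2.63 and Dlx6 by 2.04. Sp8, a zinc-finger factor of their late progeny, had levels of 3.88 and 3.80 in the bulb and -2.44 and -2.24 in the hippocampus, a difference of 6.18, although another probe gave 0.61. The homeobox gene Meis2 had levels of 4.94 and 4.94 in the bulb against 1.23 and 1.10, a difference of 3.78. Its partner Pbx3 differed by 4.48 and the related Meis1 by 5.03. Tshz1, Sall3 and Pax6, further transcription factors of these cells, differed by 3.63, 3.33 and 3.25. The exceptions were Etv1, with a difference of 0.21, and Gsx2, which was above background in the hippocampus alone and not called.

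**Figure D2:**
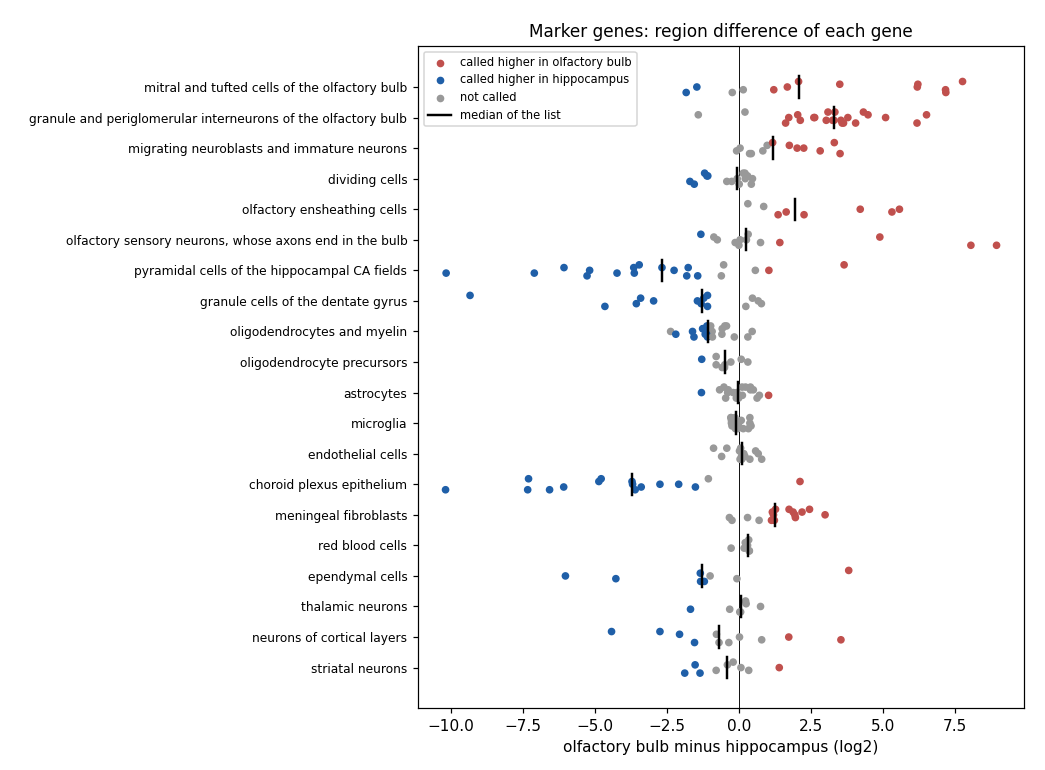
Difference between olfactory bulb and hippocampus (log2) of each gene in 20 marker lists, 1 point per gene, with the list's median as a bar: red points were called higher in the bulb, blue points higher in the hippocampus, and grey points were not called. Bulb interneuron markers lie to the right (median 3.30), choroid plexus markers to the left (median -3.70), and the 20 microglia markers around 0; for genes above background in 1 region only the point is the fitted value, not a bound.

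Of the genes that mark dopamine neurons, such as those of the glomerular layer, 2 were called higher in the bulb. Th, tyrosine hydroxylase, the rate-limiting enzyme of dopamine synthesis, had levels of 5.04 and 4.88 in the bulb and -0.21 and -0.06 in the hippocampus, a difference of 5.09 (SE 0.12, adjusted p 0.0083). Slc6a3, the dopamine transporter, had levels of 0.43 and 0.31 in the bulb, was not well above background in the hippocampus, and was at least 36.1-fold higher in the bulb. Its adjusted p of 0.0083 belongs to the fitted difference (5.33) and not to this bound. The next enzyme of the path, Ddc, which also serves serotonin synthesis, gave a difference of 0.22 and was not called. The vesicular transporter Slc18a2 (0.77) and Gch1, which makes the cofactor of tyrosine hydroxylase (0.96 by its brightest probe, 1.83 by another), were not called. Of the 15 tested genes of dopamine synthesis, transport, breakdown and reception, 2 were higher in the bulb and 3 in the hippocampus. Those 3 were the receptors Drd1 (-1.35) and Drd5 (-2.38) and Spr, sepiapterin reductase (-1.22).

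Peptides expressed by bulb and hippocampal neurons went both ways, 12 higher in the bulb and 8 in the hippocampus of 29 tested, against 6.44% and 6.56% of all genes. Trh, the precursor of thyrotropin-releasing hormone, had levels of 3.89 and 4.11 in the bulb and -2.32 and -2.69 in the hippocampus, a difference of 6.51 (SE 0.19). Nppa, atrial natriuretic peptide, differed by 4.12, Prok2, a prokineticin that guides neuroblasts to the bulb, by 3.47, and Penk, the enkephalin precursor, by 2.60. Smaller differences towards the bulb were those of Crh (2.51), Cartpt (1.99), Npy (1.64), Gal (1.43), Tac2 (1.32), Scg2 (1.15) and Adcyap1 (1.05). On the other side, Sst, somatostatin, had levels of 0.74 and 0.53 in the bulb and 4.44 and 4.38 in the hippocampus, a difference of -3.78 (SE 0.08). Grp, gastrin-releasing peptide, was above background in the hippocampus alone, at least 120-fold higher there. Vip (-0.14) and Cort (0.04) were not called.

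The promoters of Th, Scg2 and Sst are shown because the same 8 letters, the palindromic cAMP response element TGACGTCA, stand close before the start of genes that differed in opposite directions. Each sequence is the 250 bases upstream of the start on the gene's own strand, from RefSeq (GRCm38.p6), with the element in capitals. It begins 45 bases before the start in Th (chr7:142899996-142900245, minus strand), 68 in Scg2 (chr1:79440027-79440276, minus strand) and 48 in Sst (chr16:23890845-23891094, minus strand).
Th: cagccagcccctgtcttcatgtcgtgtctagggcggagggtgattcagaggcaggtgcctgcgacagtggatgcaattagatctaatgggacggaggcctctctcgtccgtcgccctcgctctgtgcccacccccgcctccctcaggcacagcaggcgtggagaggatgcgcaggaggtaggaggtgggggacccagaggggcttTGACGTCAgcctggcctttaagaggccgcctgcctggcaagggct
Scg2: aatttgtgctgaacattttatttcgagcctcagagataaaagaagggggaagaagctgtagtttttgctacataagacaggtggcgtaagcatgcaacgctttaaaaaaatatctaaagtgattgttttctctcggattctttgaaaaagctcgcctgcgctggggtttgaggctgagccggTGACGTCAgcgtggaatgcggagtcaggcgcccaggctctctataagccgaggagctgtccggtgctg
Sst: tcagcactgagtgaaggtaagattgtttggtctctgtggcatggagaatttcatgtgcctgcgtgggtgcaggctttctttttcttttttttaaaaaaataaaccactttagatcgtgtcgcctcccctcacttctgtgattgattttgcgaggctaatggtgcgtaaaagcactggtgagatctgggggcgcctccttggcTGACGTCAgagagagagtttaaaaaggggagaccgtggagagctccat
Of 41 peptide and dopamine genes with a promoter in the table, 5 held the element, the others being Cartpt, higher in the bulb at 1.99, and Ucn, which was not tested. The element, which reads the same on both strands, was found in the upstream 250 bases of 1.77% of the 27025 genes in the promoter table. It was found for 1.82% of the genes called higher in the bulb and 1.91% of those called higher in the hippocampus that had a promoter (826 and 994 genes), and for 2.83% of the 12765 tested genes with one. A match describes the letters and is not a measured binding site.

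Immature neurons also marked the bulb: 7 of 13 neuroblast genes were higher there and 0 in the hippocampus, with a median of 1.17. Dcx, doublecortin, a microtubule protein of migrating neurons, had levels of 2.83 and 2.86 in the bulb and -0.60 and -0.73 in the hippocampus, a difference of 3.51 (SE 0.09, adjusted p 0.0083). Igfbpl1 differed by 3.31, Prokr2, the receptor of prokineticins, by 2.82, the transcription factor Sox4 by 2.25, Mex3a by 2.02 and Cd24a by 1.75. Tubulin and stathmin genes that mature neurons share did not pass: Tubb3 differed by 0.37, Tubb2b by -0.08 and Stmn1 by 0.04. Robo2 (0.98 by its brightest probe), the transcription factor Sox11 (0.83) and St8sia4 (0.43) lay towards the bulb at less than 2-fold and were not called either. Genes of dividing cells were not higher in the bulb, with 0 of 15 called there and 5 in the hippocampus. Among those were Ccnd2, a cyclin (-1.70), Ube2c (-1.55, but -0.25 by another probe), Birc5 (-1.19) and Mcm6 (-1.08), while the proliferation antigen Mki67 differed by 0.01.

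Olfactory ensheathing cells wrap the incoming sensory axons, and 6 of 8 of their genes were higher in the bulb. Fabp7, a brain lipid-binding protein also made by astrocytes, had levels of 6.15 and 6.04 in the bulb and 1.97 and 1.80 in the hippocampus, a difference of 4.21 (SE 0.08). Foxd3, a neural crest factor, and Prss56, a serine protease, were above background in the bulb alone, at least 21.6-fold and 12-fold higher. Mybpc1 differed by 2.26, Npy by 1.64 and Frzb, a secreted Wnt inhibitor, by 1.36. Sox10 (0.31), which oligodendrocytes share, and Ngfr (0.86) were not called.

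Among genes that no marker list holds, Ms4a15, a tetraspan membrane protein, had levels of 4.51 and 4.48 in the bulb and was not well above background on either hippocampal array, at least 632-fold higher. Lgr5, a receptor for R-spondins known as a stem cell marker in other tissues, had levels of 3.04 and 3.09 in the bulb and -2.81 and -3.16 in the hippocampus, a difference of 6.05. The proton channel gene Otop2 differed by 5.90 and Ltbp2, an extracellular matrix protein, by 5.48. Further genes above background in the bulb alone were the phosphatase gene Ppm1j (at least 63.6-fold), Klhl30 (50.5-fold), the nicotinic receptor subunit Chrna10 (46-fold), Clca3a2 (43.3-fold) and Trdn, triadin (41.6-fold). In all, 606 genes were above background on both bulb arrays and neither hippocampal array, 340 of them called, and 232 in the reverse case, 202 of them called. The lowest level among probes well above background was -4.87 and -6.09 on the bulb arrays and -5.05 and -4.56 on the hippocampal arrays, and its part in these counts was not tested.

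Against the bulb, the hippocampus was marked by the glutamatergic programme of the pallium, the dorsal forebrain from which cortex arises. Of 25 genes, 22 were higher in the hippocampus and 0 in the bulb, with a median of -2.11. Neurod2, a transcription factor of excitatory neurons, had levels of 0.00 and -0.33 in the bulb and 4.24 and 4.18 in the hippocampus, a difference of -4.37 (SE 0.11, adjusted p 0.0083). Hpca, the calcium sensor hippocalcin, had levels of 4.49 and 4.44 in the bulb and 8.34 and 8.28 in the hippocampus, a difference of -3.84. Itpka, an inositol trisphosphate kinase of dendritic spines, had levels of 1.76 and 1.5 against 6.18 and 6.15, a difference of -4.54. Each hippocampal array was higher than each bulb array for these genes, and all 3 were well above background in the bulb too. They were not particular to the hippocampus: cortex levels were 3.16 and 3.17 for Neurod2, 7.64 and 7.87 for Hpca, and 5.92 and 6.19 for Itpka. Further members were Bhlhe22 (-4.67), Zbtb18 (-3.15), Nptx1 (-3.12), Chn1 (-2.82), Nrgn, neurogranin (-2.53), Camk2a (-2.28) and Slc17a7, the vesicular glutamate transporter VGLUT1 (-1.10). Of the early forebrain patterning factors, Emx2 differed by -1.51, Emx1 by -1.49 and Lhx2 by -1.28. Mef2c (0.69), Zbtb20 (-0.52) and Nfib (-0.91) were not called.

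Pyramidal cell genes of the CA fields followed, 14 of 19 higher in the hippocampus and 2 in the bulb (median -2.67). Spink8, a protease inhibitor, had levels of 3.04 and 2.95 on the hippocampal arrays and -0.80 and 0.02 on those of cortex, was not well above background in the bulb, and was at least 356-fold higher in the hippocampus. Ntf3, neurotrophin 3, was at least 68.1-fold and Cabp7, a calcium-binding protein, at least 11.8-fold higher there. Npy2r, a neuropeptide Y receptor, had levels of -4.07 and -4.02 in the bulb and 0.35 and 0.03 in the hippocampus, a difference of -4.23. Rgs14, a regulator of G protein signalling known from CA2, differed by -3.65, the POU factor Pou3f1 by -3.63 and the kainate receptor subunit Grik4 by -3.46. Cacng5, an AMPA receptor auxiliary subunit, and Pcp4, a calmodulin-binding protein, went the other way at 3.65 and 1.04.

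Dentate granule cell genes were higher in the hippocampus in 10 of 14 cases and in the bulb in 0, with a median of -1.27. Lct, lactase, was above background in the hippocampus alone, with levels of 2.71 and 2.48, and at least 270-fold higher. Prox1, the homeobox factor that maintains granule cell identity, was at least 18.2-fold higher (levels of -0.85 and -1.08 in the hippocampus). Dsp, desmoplakin, had levels of -2.67 and -2.76 in the bulb and 0.94 and 0.75 in the hippocampus, a difference of -3.56. The secreted synaptic organisers C1ql3 and C1ql2 differed by -3.41 and -2.96. Dock10 (0.78), Akap7 (0.67, but -0.72 by another probe), Fam163b (0.47) and Pdzd2 (0.24) were not called.

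The largest other differences towards the hippocampus included genes of several kinds. Crym, a thyroid hormone-binding protein, had levels of -0.20 and -0.46 in the bulb and 5.5 and 5.36 in the hippocampus, a difference of -5.76 (probe at chr7:127329970-127330029, mm9). Slc26a4, the anion exchanger pendrin, differed by -6.37, Pkp2, the desmosome protein plakophilin 2, by -5.56, the transcription factor Npas1 by -4.99 and Lpl, lipoprotein lipase, by -4.96. Olfml2b and Serpina3f both differed by -4.82 and Krt18, a keratin, by -4.78. Prdm8, a zinc-finger factor, was at least 129-fold higher. Ttr, Folr1 and Kl completed the 12 largest, and these 3 are markers of choroid plexus.

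Choroid plexus epithelium, the tissue that secretes cerebrospinal fluid, was the marker list that differed most from 0. Of 16 genes tested, 14 were higher in the hippocampus and 1 in the bulb, with a median of -3.70 (-3.65 with genes of 1 region at their bound). Ttr, transthyretin, had levels of -2.29 and -2.83 in the bulb, 7.27 and 7.95 on the hippocampal arrays and 1.66 and 4.38 in the cortex, a difference of -10.18 (SE 0.36, adjusted p 0.0084). Folr1, the folate receptor, differed by -6.08 and Kl, Klotho, by -4.78. Sostdc1, Kcne2 and Calml4 were above background in the hippocampus alone, at least 93.9-fold, 59.2-fold and 49.2-fold higher. Both hippocampal arrays carried this signal, and all 16 genes were higher on its PAMAM than on its saline array, by a median of 0.77. The summed level of the list was 4.20 and 4.19 in the bulb, 7.88 and 8.56 for the hippocampus, and 5.02 and 5.81 in the cortex. Aqp1, a water channel, went against the list at 2.12, with levels of 2.21 and 2.16 in the bulb and -0.27 and 0.40 in the hippocampus. Of the 12 largest and the 8 bounded genes towards the hippocampus named by rule, 3 and 3 belong to the list. The median of the list was -3.18 in the saline pair of arrays and -4.39 in the PAMAM pair. The part of choroid plexus in the other differences towards the hippocampus was not tested.

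Genes of ependymal cells, which line the ventricles, mostly differed in the same direction: 5 of 8 were higher in the hippocampus and 1 in the bulb. Tmem212 was at least 23.2-fold higher and Ccdc153 differed by -4.27, while Foxj1, the master factor of motile cilia, differed by -1.33 (levels of -1.97 and -2.17 in the bulb, -0.86 and -0.62 in the hippocampus). The dynein gene Dnah11 ran the other way at 3.81. The summed level was 2.49 and 2.46 in the bulb and 3.07 and 3.18 in the hippocampus.

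Genes of meningeal fibroblasts, the cells of the brain's coverings, were higher in the bulb in 12 of 16 cases and in the hippocampus in 0, with a median of 1.25. Islr had levels of 2.63 and 2.56 in the bulb and -0.39 and -0.41 in the hippocampus, a difference of 2.99. Omd, osteomodulin, differed by 2.45, the transporter Slc6a13 by 2.19, Aldh1a2, a retinoic acid-synthesising enzyme, by 1.96 and the collagen gene Col1a2 by 1.27. Dcn, decorin (-0.24), Igf2 (-0.33), Lum (0.30) and Bgn (0.70) were not called. The summed level was 5.71 and 5.65 in the bulb and 4.73 and 4.78 in the hippocampus, and its part in other genes higher in the bulb was not tested.

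Myelin genes were lower in the bulb, with 10 of 21 oligodendrocyte genes higher in the hippocampus, 0 in the bulb and a median of -1.09. Mbp, myelin basic protein, had levels of 2.23 and 2.24 in the bulb and 3.71 and 3.87 in the hippocampus, a difference of -1.56 (SE 0.09, adjusted p 0.0099). Opalin differed by -2.19, Tspan2 by -1.61 and Mag, myelin-associated glycoprotein, by -1.23, whereas Sox10 (0.31) was not called. Of 9 precursor genes 1 was called, Bcas1 at -1.29. Astrocyte genes had a median of -0.01 (0.20 under quantile normalisation), with Slc4a4, a bicarbonate transporter, higher in the bulb (1.03) and Slc1a2, the glutamate transporter GLT-1, higher in the hippocampus (-1.30). Neither direction was called for any of 20 microglia, 16 endothelial or 7 red cell genes, nor for 30 ribosomal protein and 12 reference genes. Limma's adjusted p was nonetheless under 0.05 for some of these at less than 2-fold, such as Actb at -0.58 (adjusted p 0.027) and C1qb at 0.42 (adjusted p 0.039).

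Neighbouring forebrain tissue was checked in the same way. Among 9 striatal genes 1 was higher in the bulb and 3 in the hippocampus. The striatal phosphoprotein Ppp1r1b (DARPP-32) had levels of 1.14 and 1.0 in the bulb, 2.48 and 2.70 on the hippocampal arrays and 5.17 and 5.24 in the cortex. Among 11 genes of cortical layers, 2 were higher in the bulb and 4 in the hippocampus, among them Fezf2 at -4.42. Of 7 thalamic genes 1 was called, Prkcd at -1.68, with levels of -0.28 and 0.42 in the hippocampus. Over all genes, 6.56% were called in that direction. In the hippocampus, 6 of the 7 thalamic genes were higher on the PAMAM than on the saline array, by a median of 0.70, and in the bulb 3 of 7.

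Inhibitory transmission tilted to the bulb at its synthesis and transport steps but not at its receptors. Of 27 genes of the GABA and glycine synapse, 5 were higher in the bulb and 2 in the hippocampus, with a median of 0.05 (-0.01 under median scaling). These were 18.5% and 7.41%, against 6.44% and 6.56% of all genes, so the share towards the hippocampus was near that of all genes. Gad1, the GABA-synthesising enzyme GAD67, had levels of 5.56 and 5.42 in the bulb and 3.55 and 3.53 in the hippocampus, a difference of 1.95 (SE 0.08, adjusted p 0.0086). Gad2 differed by 1.27, the vesicular transporter Slc32a1 by 1.20, the GABA transporter Slc6a11 by 2.41 and the glycine transporter Slc6a9 by 1.20. Both calls towards the hippocampus were receptor subunits: Gabbr2, of the GABA-B receptor, at -2.79, and Gabrb1, of the GABA-A receptor, at -1.60. The alpha subunits Gabra3 and Gabra4 differed by 0.63 and -0.84, and neither was called.

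**Figure D3:**
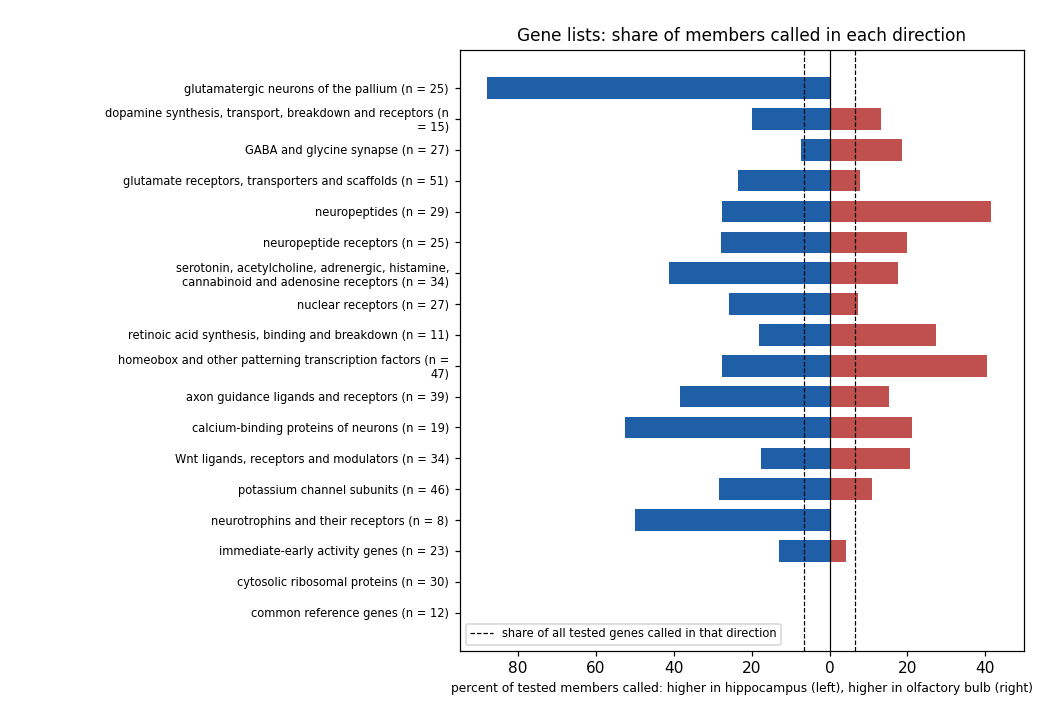
Percent of the tested members of 18 pathway lists called higher in the bulb (red, to the right) and in the hippocampus (blue, to the left), with the number tested in brackets and, dashed, the share of all tested genes called in that direction (6.44% and 6.56%). Pallial genes lie at 22 of 25 towards the hippocampus, and the 30 ribosomal protein and 12 reference genes have no bar.

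Glutamate receptors, transporters and scaffolds numbered 51, with 4 called towards the bulb and 12 towards the hippocampus (median -0.50). These were 7.84% and 23.5%, against 6.44% and 6.56% of all genes, so the share towards the bulb was near that of all genes. Of the AMPA subunits, Gria4 was higher in the bulb (1.68, levels of 3.39 and 3.36 against 1.63 and 1.77), whereas Gria1, Gria2 and Gria3 differed by -0.83, 0.12 and -0.68 and were not called. Of the NMDA subunits, Grin2a was higher in the hippocampus (-2.11), and Grin2b (-0.77) and Grin1 (-0.32) were not called. Kainate receptors divided, Grik3 at 1.38 and Grik4 at -3.46, and metabotropic receptors likewise, Grm8 at 1.80 and Grm3, Grm5 and Grm7 at -1.48, -1.14 and -1.04. The auxiliary AMPA receptor genes Cacng5 (3.65) and Cacng8 (-1.54) were on opposite sides, and Cnih2 was at -2.11. The postsynaptic scaffold Shank3 differed by -1.61.

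Receptors for peptides and amines showed pairs of related genes on opposite sides. Among 25 peptide receptors, 5 were higher in the bulb and 7 in the hippocampus. Vipr2, a receptor for vasoactive intestinal peptide, had levels of 1.6 and 1.58 in the bulb and -2.35 and -2.48 in the hippocampus, a difference of 4.0 (SE 0.08), while Vipr1 differed by -2.80 although a further probe gave -0.28. The substance P receptor Tacr1 differed by 3.51 (SE 0.44) and the corticotropin-releasing hormone receptor Crhr1 by 1.75. Towards the hippocampus stood the somatostatin receptor Sstr1 (-3.08), the neuropeptide Y receptors Npy2r and Npy5r (-4.23 and -1.30), and Grpr and Tacr3, above background there alone and at least 10.4-fold and 6.2-fold higher. Grpr is the receptor of Grp, which was also higher in the hippocampus. Of the related bombesin-family pair, the peptide gene Nmb was higher in the bulb (3.50) and its receptor Nmbr, at 0.94, was not called.

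Among 34 receptors for serotonin, acetylcholine, noradrenaline, histamine, cannabinoids and adenosine, 6 were higher in the bulb and 14 in the hippocampus, with a median of -0.56. The serotonin receptor Htr4 was above background in the hippocampus alone and at least 40.9-fold higher, and Htr1a and Htr2c differed by -2.74 and -2.30. Htr1f was higher in the bulb at 1.70. The muscarinic receptors divided, Chrm2 at 2.85 (levels of 0.02 and 0.51 in the bulb, -3.08 and -2.10 in the hippocampus) and Chrm3 and Chrm1 at -2.11 and -1.29. Cnr1, the cannabinoid receptor, had levels of 1.95 and 1.64 in the bulb and 4.53 and 4.50 in the hippocampus, a difference of -2.72. The adenosine receptors Adora1 (-1.68) and Adora2a (1.40) also lay on opposite sides.

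Calcium-binding proteins, much used as labels of neuron classes, numbered 19, with 4 called towards the bulb and 10 towards the hippocampus. Calb2, calretinin, had levels of 1.96 and 1.99 in the bulb and -2.45 and -2.25 in the hippocampus, a difference of 4.32 (SE 0.09). Calb1, calbindin, had levels of -1.84 and -1.90 in the bulb and 1.24 and 1.30 in the hippocampus, a difference of -3.13 (SE 0.08). Scgn, secretagogin, was above background in the bulb alone and at least 20-fold higher. Pvalb, parvalbumin, differed by -3.20. Calretinin and secretagogin were thus higher in the bulb, and calbindin and parvalbumin in the hippocampus. Of the whole list, 21.1% and 52.6% were called towards the bulb and the hippocampus, against 6.44% and 6.56% of all genes. Of 46 potassium channel subunits, 5 were higher in the bulb and 13 in the hippocampus. Among the latter were the modulatory subunit Kcns1, above background in the hippocampus alone and at least 7.05-fold higher, the beta subunit Kcnab1 (-3.79) and the modulatory subunit Kcng1 (-2.67), and among the former Kcnh5 (1.83) and Kcnb2 (1.74).

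Transcription factors of regional patterning numbered 47, with 19 called towards the bulb and 13 towards the hippocampus. Beyond the Dlx, Meis and Pbx genes, the Zic family of zinc-finger factors leaned to the bulb: Zic1 had levels of 4.59 and 4.56 there and 1.11 and 2.38 in the hippocampus, a difference of 2.83 (SE 0.38), Zic4 differed by 1.40 and Zic2 by 1.24, and Zic5, at 0.52, was not called. Foxp2 was above background in the bulb alone, at least 6.85-fold higher, and its relative Foxp1 differed by -1.65 (-0.58 by another probe). Towards the hippocampus were Lhx9 (-2.46), Satb1 (-1.79) and Otx2 (-3.60, but -0.50 by another probe), the last also a choroid plexus gene. Lhx6, a factor of cortical interneurons, had probes at -0.36 and -5.37 and was not called by the brighter.

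Axon guidance genes numbered 39, with 15 called towards the hippocampus and 6 towards the bulb. The repulsive ligand Slit1 had levels of 1.02 and 0.92 in the bulb and 4.34 and 4.18 in the hippocampus, a difference of -3.29 (SE 0.08), and Slit2 and Slit3 differed by -3.11 and -2.60. The Slit receptors did not follow as a group, with Robo3 at -3.13 and Robo1 and Robo2 at -0.53 and 0.98, neither called. Of the class 3 semaphorins, Sema3a (2.20), Sema3d (1.70) and Sema3c (1.38) were higher in the bulb, and Sema3f (0.94) and Sema3e (-0.15) were not called. The semaphorin receptors Nrp1 (-1.84) and Nrp2 (-1.44) were higher in the hippocampus. The netrin receptors Unc5a (-3.02) and Unc5c (-1.94) and the Eph receptors Epha7 (-2.89) and Epha4 (-2.21) were higher in the hippocampus, and the ligand genes Ntn1 (1.34) and Efna5 (1.13) in the bulb. For Ntn1 another probe gave 0.00.

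Wnt pathway genes divided evenly, 7 towards the bulb and 6 towards the hippocampus of 34. Secreted inhibitors were among those higher in the bulb, Wif1 (2.01), Sfrp2 (1.59), Frzb (1.36) and Sfrp5 (1.18), together with the ligands Wnt5a (1.41) and Wnt7a (1.31) and Rspo3 (1.09). Dkk3, of the Dickkopf family, was higher in the hippocampus, with levels of 1.94 and 1.67 in the bulb and 5.71 and 5.57 in the hippocampus, a difference of -3.84. Rspo2 was above background in the hippocampus alone and at least 30.2-fold higher, and Wnt4 and Wnt7b differed by -1.90 and -1.64. The common target Axin2 differed by -0.15 and was not called.

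Of 27 nuclear receptors, 2 were higher in the bulb and 7 in the hippocampus. These were 7.41% and 25.9%, against 6.44% and 6.56% of all genes, so the share towards the bulb was near that of all genes. The mineralocorticoid receptor Nr3c2 had levels of -2.29 and -2.21 in the bulb and -0.23 and -0.47 in the hippocampus, a difference of -1.89, whereas the glucocorticoid receptor Nr3c1 differed by -0.59 and was not called. The thyroid hormone receptor Thrb (-2.17) and the progesterone receptor Pgr (-2.01) were also higher in the hippocampus. Vdr, the vitamin D receptor, was above background in the bulb alone and at least 6.65-fold higher, and Pparg differed by 1.75. Of 11 retinoic acid genes, the binding proteins Crabp1 (at least 10.6-fold) and Crabp2 (1.47) and the enzyme Aldh1a2 were higher in the bulb, and Rbp4 (-1.72) and the catabolic enzyme Cyp26b1 (-1.14) in the hippocampus. Of 8 neurotrophin genes 4 were higher in the hippocampus and 0 in the bulb: Ntf3, Ntf5 (at least 2.42-fold), the sorting receptor Sort1 (-1.10) and Bdnf, with levels of -0.82 and -0.67 in the bulb and 0.71 and 1.26 in the hippocampus (difference -1.73, SE 0.14, adjusted p 0.013). The neurotrophin receptor Ntrk2 differed by 0.34 and was not called.

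The region difference was close to the same in the saline and the PAMAM pair for most genes. Each pair has 1 array a region, so neither has a test. The difference changed between the pairs by a median of 0.14, and across the 21846 genes above background on all 4 arrays the differences of the pairs correlated at Pearson's r of 0.919, a description over genes, which are not independent. All 3096 called genes had the same sign in both pairs, which the call itself favours, and 2705 were at least 2-fold in both. Among genes above background on all 4 arrays, 1147 were at least 2-fold higher in the bulb and 1285 in the hippocampus in the saline pair, and 1065 and 1423 in the PAMAM pair.

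**Figure D4:**
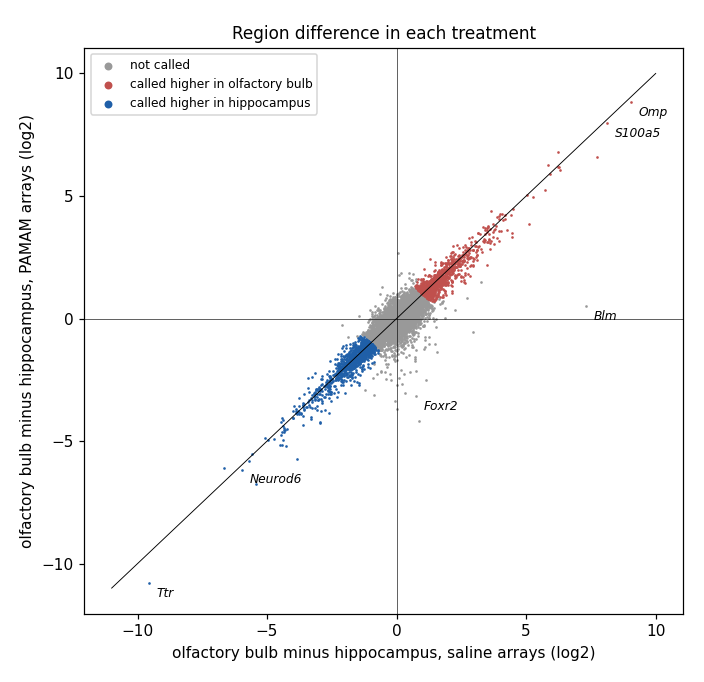
Difference between olfactory bulb and hippocampus (log2) in the saline arrays (horizontal) and the PAMAM arrays (vertical) for the 21846 genes above background on all 4 arrays, 1 point per gene, with the line of equality: red and blue points were called higher in the bulb and in the hippocampus, and grey points were not called. Omp and Ttr lie far out along the line, and Blm lies far from it at 7.30 in saline and 0.50 in PAMAM.

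Immediate-early genes are induced rapidly when a neuron fires. The list used here also holds later activity-regulated genes, such as Inhba and Ptgs2. Of its 23 genes tested, 1 was called higher in the bulb, Inhba (2.05), and 3 in the hippocampus, Ptgs2 (-2.77), Nr4a2 (-1.54) and Jun (-1.06). These were 4.35% and 13.0%, against 6.44% and 6.56% of all genes. The median of the list was 0.13 in the saline pair and -0.34 in the PAMAM pair. Arc had levels of 4.21 and 3.1 in the bulb and 4.33 and 4.76 in the hippocampus. Fos had levels of 1.93 and 0.89 in the bulb and 0.80 and 0.44 in the hippocampus, a difference of 0.80 that was not called. For both genes the saline bulb array was the higher of the bulb arrays.

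The genes whose difference varied most between the pairs were all read from 1 probe, and none was called. Blm, a DNA helicase, had levels of 5.67 and -1.32 in the bulb and -1.63 and -1.81 in the hippocampus, so the saline bulb array alone was high. Vmn1r173, a vomeronasal receptor gene, had levels of -3.49 and -3.33 in the bulb and -3.49 and 0.36 in the hippocampus, where the PAMAM array alone was high. Slc16a7, a monocarboxylate transporter, had levels of -2.71 and -0.11 in the bulb and -2.77 and -2.80 in the hippocampus. Uqcrc1, a subunit of respiratory complex III, had levels of 1.15 and 2.89 in the bulb and 3.25 and 3.17 in the hippocampus, with the saline bulb array low. Spatc1 and Pmel were higher on the PAMAM than on the saline bulb array (-2.43 against -3.24, and -2.60 against -3.43) and lower on the PAMAM than on the saline hippocampal array (-4.19 against -3.33, and -4.44 against -3.89).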

How the data were processed

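The authors deposited scanner files, made with Agilent Feature Extraction 10.7.3.1 per the file headers, that hold background-corrected spot intensity on a linear scale, and a table of log2 values in which each probe's median over arrays had been subtracted, as a match to the scanner values showed (r of at least 0.9999 over 29553 probes). Its treatment of repeated spots is unknown, and its column medians were -0.0906 and -0.0617 for the bulb, each time saline before PAMAM, -0.0459 and 0.0252 for the hippocampus, and 0.0432 and 0.0347 for the cortex. All arrays lie on 1 slide.

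Log2 of the processed signal was taken, the 75th percentile of its non-control spots subtracted for each array, and spots of a probe averaged after outlier spots were dropped (15 probes lost over 6 arrays). That percentile was 452 to 709.6 in intensity. Of 55681 probes, 34343 were well above background on both arrays of at least 1 region and were tested with limma 3.58.1 in R 4.3.3 (lmFit and eBayes on region and treatment, 1 residual degree of freedom, Benjamini-Hochberg over probes). A gene stands by its brightest tested probe. Among the 829 called genes with several probes, all probes were called the same way in 535, and 54 had a probe of opposite sign. Names come from the files, updated through RefSeq accessions (27315 probes matched, 2869 with a changed symbol), and can be old. A gene above background in 1 region only is given as a bound: the mean of the bright region over, per array, the higher of the dim probe's level and the lowest level well above background. Genes named are list members by role, the 12 largest called differences in each direction, the 8 largest bounds and the 5 genes in each direction whose difference varied most between treatments. The comparison, its members and the lists were chosen with earlier results of these data known, so lists are described by counts and medians and not tested. List members that are not named still enter the counts of their lists, and a few results are not reported here. The fit was tested on simulated data with few changed probes, where it called most of the larger differences and none of the smaller, and gave the right sign to all of them. In the data far more probes, 12121, passed an adjusted p under 0.05. The share called in the simulation therefore does not carry over to the data. Alternatives were the background correction, scaling, filter, arrays, block, variance trend, probe rule, deposited table, call rule, each array left out, and each treatment alone.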

Additional observations from a re-analysis of the deposited data

Results flagged for a closer look

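In 141 of the 21846 genes above background on all 4 arrays, the difference between olfactory bulb and hippocampus had opposite signs in the saline and the PAMAM pair and differed between them by at least 2-fold. Each pair has 1 array a region, so this difference was not tested. Among the genes chosen for naming, 8 were of this kind. The change, PAMAM minus saline, was -3.90 for Foxr2 (0.73 in saline, -3.17 in PAMAM), -2.90 for Olfr1043, -2.36 for Zfp677, -1.55 for Tnnt1, a troponin used as a thalamic marker (1.53 in saline, -0.02 in PAMAM), -1.20 for Slc4a1, an anion exchanger of red cells, and 1.37 for Nr6a1. For Junb and Egr1, both immediate-early genes, it was -1.13.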

How the results depend on the processing

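The genes called higher in the olfactory bulb (1534) and the genes called higher in the hippocampus (1562) stayed within 1.5 times under quantile or median scaling, the filter on all 4 arrays, all 6 arrays, no treatment block, an intensity trend, the median of a gene's probes and the deposited table. Of these settings, the filter on all 4 arrays gave the fewest, 1049 higher in the bulb and 1278 in the hippocampus of 21854 genes. Within 1 treatment there is no test, and genes at least 2-fold apart numbered 1786 and 1624 in saline and 1689 and 1777 in PAMAM. With normexp background correction 782 and 1117 genes were called, 1888 of them among the main calls. With no minimum difference 3893 and 4459 genes passed. With no filter on dim probes 0 and 0 of 35008 genes were called by limma, with a lowest adjusted p of 0.12; 8782 had an unadjusted p under 0.05, and at least 2-fold 1865 and 1861 of these. The cause was not tested. Leaving out 1 array in turn, with no treatment block, gave 1173 to 1654 and 1453 to 1618 genes; the spread then comes from the region that keeps 2 arrays, and the lone array of the other is assumed to vary like them. Of 327 called genes of the lists and rules, 42 lost their call with normexp and 8 to 37 with 1 array left out. No called gene of the lists or rules changed direction in any of these settings. Under the median of a gene's probes, Cngb1, not called and below 0 by its brightest probe, was called higher in the bulb at 2.32. With 1 residual degree of freedom and 4 pooled samples, the number of arrays limits the precision. A probe's own spread is the change of its region difference between the treatments. Limma draws this spread towards a value shared by all tested probes (standard deviation 0.091, prior degrees of freedom 1.96). The smallest adjusted p values rest in large part on that shared value.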

Other observations

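Gene families outside the lists, chosen after their values were seen and grouped by symbol, also differed in their balance, beside 6.44% and 6.56% of all genes. Of 36 collagen chain genes tested, 12 were higher in the bulb and 5 in the hippocampus, and of 25 major histocompatibility genes 6 and 1. Of 20 cadherins, which hold cells together, 7 were higher in the bulb and 3 in the hippocampus. Synaptotagmins, calcium sensors of vesicle release, were called in 2 and 5 of 15 cases, and protein kinase C isoforms in 0 and 4 of 10. Odorant receptor genes, whose RNA is made in the nose, were higher in the bulb in 9 of 136 cases, a share near that of all genes, and in the hippocampus in 2, a share below it.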
